A study of Mus musculus with 4 samples.

Results

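Replication-dependent histone genes were examined by RNA sequencing of hair follicle stem cells, which supply new hair in each cycle. All 65 genes whose symbol follows the naming of the clustered histone genes were taken, from 55401 genes in the deposited table, by a rule on symbols alone. That rule was chosen with earlier results of these data known. The 65 genes comprised 5 genes of the linker histone H1 and 19 H2A, 17 H2B, 12 H3 and 12 H4 genes. All libraries came from C57BL/6 mice in anagen, when follicles grow hair. The HFD group had been given a high-fat diet for 4 months and the ND group a normal diet, with 2 libraries per diet. The labels do not say whether the libraries came from separate mice, so the p-values measure only the spread between these libraries. Summed counts were 8734246 and 8590570 in the HFD libraries and 9940848 and 9366856 in the ND libraries.

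Histones package DNA into nucleosomes: the core histones H2A, H2B, H3 and H4 form the particle around which DNA is wrapped, and H1 binds the DNA between particles. A cell that copies its genome needs new histones in matching amounts, and the replication-dependent genes supply them, being transcribed mainly during S phase from dense clusters of mostly intronless copies. Their mRNAs usually end in a short stem-loop in place of a poly(A) tail, and the stem-loop is bound by SLBP, the protein that carries these mRNAs through processing, translation and decay. Replacement histones such as H2A.Z and H3.3 come from separate genes outside the clusters and are made throughout the cell cycle.

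The 3′ stem-loop is the feature that sets these mRNAs apart, and a stem of 6 bases closing a loop of 4 was found after the stop codon in the gene models of 40 of the 63 members with a coding model. The forms found are shown because those of the H4 genes differed from those of the other classes, which shared forms among themselves. In each line the capitals mark the stem and loop, the letters are those of the transcript strand of GRCm38 written as DNA, and the flanks are in lower case.
Hist1h2ao: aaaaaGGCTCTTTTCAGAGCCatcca
H3c6: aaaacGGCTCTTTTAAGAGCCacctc
H2ac20: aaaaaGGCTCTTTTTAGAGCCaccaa
H4c4: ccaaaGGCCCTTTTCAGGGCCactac
H4c14: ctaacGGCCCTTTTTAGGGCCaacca
H4c2: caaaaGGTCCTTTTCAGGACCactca
The Hist1h2ao site lies at chr13:21810893-21810918 on the plus strand and the H4c4 site at chr13:23581945-23581970 on the plus strand. The form in Hist1h2ao was the commonest, with 24 members, namely 3 H1, 9 H2A, 7 H2B and 5 H3 genes. The form in H3c6 occurred in 3 H3 and 2 H2B genes, and the form in H2ac20 in that gene alone. The 3 forms whose stem carries GGCC or GGTC at its base were found in H4 genes, with 6 members like H4c4, 2 like H4c14 and 2 like H4c2. A member without a match has no such letters in its annotated 3′ end, and 15 of those models end within 2 bases of the stop codon.

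Promoters are shown for 3 called members, an H2A, an H2B and an H4 gene. Each line gives the 150 bases before the RefSeq gene start in GRCm38.p6, in the direction of transcription, with 3 motifs in capitals, on either strand. One is the CCAAT box, another the TATAAA box, and the third ATTTGCAT, the octamer that POU factors bind.
H2ac20: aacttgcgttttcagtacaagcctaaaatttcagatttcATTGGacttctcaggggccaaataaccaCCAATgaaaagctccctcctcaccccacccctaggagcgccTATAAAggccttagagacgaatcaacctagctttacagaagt
H2bc3: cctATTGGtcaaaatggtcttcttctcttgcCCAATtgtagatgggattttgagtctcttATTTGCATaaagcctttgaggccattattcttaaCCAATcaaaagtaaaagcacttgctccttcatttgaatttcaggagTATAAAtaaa
H4c12: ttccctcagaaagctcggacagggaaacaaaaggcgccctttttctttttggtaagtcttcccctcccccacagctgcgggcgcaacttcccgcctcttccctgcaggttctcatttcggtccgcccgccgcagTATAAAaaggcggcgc
These stretches are chr3:96220881-96221030 on the minus strand, chr13:23746584-23746733 on the plus strand and chr13:21750554-21750703 on the minus strand. H2ac20 also holds an octamer farther upstream in its window, outside the printed bases, so H2ac20 and H2bc3 hold all 3 motifs and H4c12 TATAAA alone. RefSeq windows of 250 bases before to 50 after the start were matched for 50 of the 65 members, and both strands were searched. CCAAT was found in 88% of the members' windows, against 37.4% of all 32851 windows, and TATAAA in 60%, against 13.6%. The octamer was found in 12 members (24%), against 1.74% of all windows. Those 12 were 6 of the 14 matched H2A genes and 6 of the 12 matched H2B genes, with 0 of 5 H1, 0 of 10 H3 and 0 of 9 H4 genes. CCAAT was present in every matched H1, H2A, H2B and H3 window and in 3 of 9 H4 windows. H2A and H2B genes often lie head to head, so some of their windows overlap and share a motif. A match is a run of letters, and binding was not measured.

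Histone mRNA was lower with HFD than with ND in every class. Of the 65 members, 60 passed the filter on low counts and were tested. Of these 60, 14 were called lower with HFD and 0 higher, at an adjusted p under 0.05 in edgeR's quasi-likelihood test adjusted over all 14479 genes tested. The background was 0.228% of all tested genes called lower (33 genes) and 1.12% called higher (162 genes). The 14 made up 23.3% of the tested members and 42.4% of all genes called lower, while members were 0.414% of the genes tested. The log2 fold change was negative for all 60, against 49.9% of all tested genes, and its median was -0.76, against 0.002 over all genes. In 54 of the 60 both HFD libraries lay below both ND libraries, against 21.9% of all genes. At an unadjusted p under 0.05, 46 members were lower, against 6.03% of all genes. In bulk RNA, fewer cells that make a transcript and less of it per cell cannot be told apart.

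The members' summed level was 4804 and 4827 CPM (counts relative to library size, TMM-scaled) in the HFD libraries, against 9580 and 6575 CPM in the ND libraries. The HFD libraries were almost equal and both lay below either ND library, while the ND libraries differed from each other by more than the lower of them differed from HFD. The means were 4815 ± 16.02 CPM with HFD and 8077 ± 2125 CPM with ND (SD, n = 2 each), a ratio of 0.596, and against ND replicate 2 alone the ratio was 0.732. ND replicate 1 exceeded ND replicate 2 for 56 of 60 members, against 49.8% of all genes. HFD replicate 1 exceeded HFD replicate 2 for 30 of 60, against 49% of all genes.

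The number of calls rested on having all 4 libraries. Without ND replicate 1 the edgeR test called 0 members lower (0% of all genes) and the median log2 fold change was -0.47. In that fit 58 of 60 members had a negative value and 30 an unadjusted p under 0.05, against 3.85% of all genes. Without ND replicate 2 it called 0 members (0% of all genes), with a median of -0.99 and 51 members lower at an unadjusted p under 0.05, against 7.21% of all genes. Without HFD replicate 1 it called 2, Hist1h2ao and H2ac20, and without HFD replicate 2 it called 1, H3c10, each against 0.0138% of all genes. The medians in those fits were -0.77 and -0.75. With all libraries, DESeq2 called 33 members lower (0.794% of all genes) and 0 higher, and the edgeR test without a count filter 44 of 63 (0.908% of all genes). With libraries scaled to equal sums of TPM the edgeR test called 2, Hist1h2ao and H2ac20 (0.0207% of all genes). Limma on log2(FPKM + 1) and on log2(FPKM + 0.1) called 0 members and 0 genes lower, and at an unadjusted p under 0.05 had 48 of 58 members lower in either case, against 8.88% and 8.9% of all genes. Library totals called 21 (0.449% of all genes), a filter of mean FPKM at least 1 called 21 (0.422%), and removal of a trend on exonic length called 19 (0.387%). Upper quartile scaling (0.2%), DESeq2 size factors in edgeR (0.228%) and leaving out ribosomal, mitochondrial or small RNAs (0.231%) called 14 each.

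**Figure D1:**
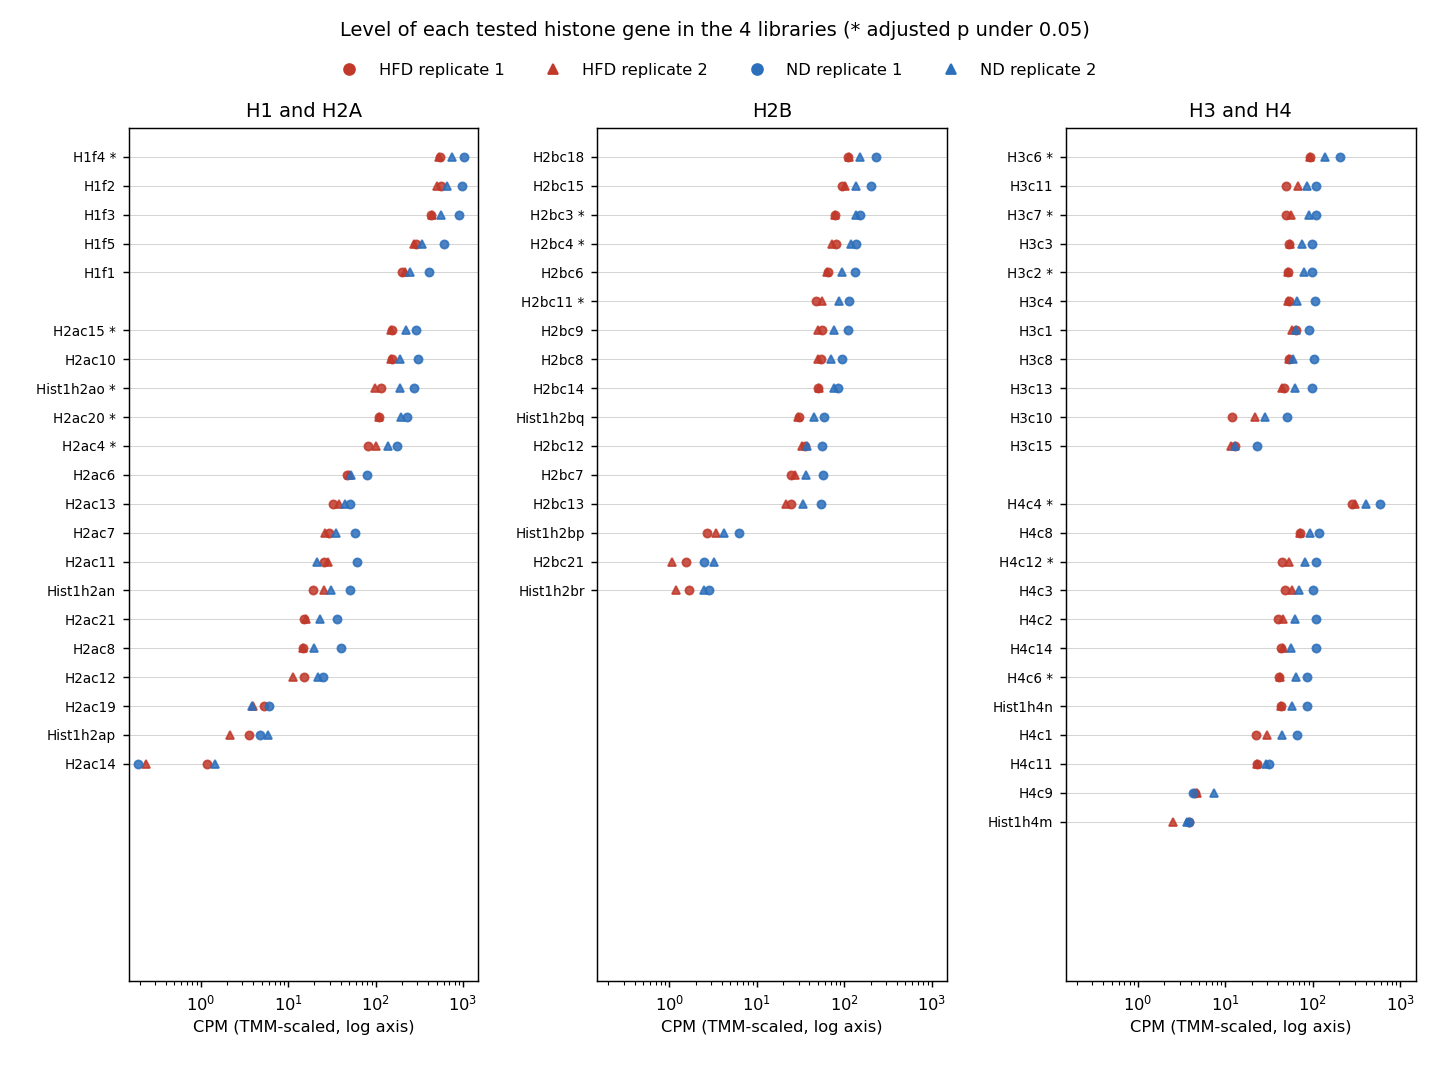
Level of each of the 60 tested histone genes in CPM (log axis), with HFD libraries in red and ND libraries in blue, replicate 1 as circles and replicate 2 as triangles, and an asterisk on the 14 called genes. For 54 genes both red points lie left of both blue points, and for 56 genes ND replicate 1 lies right of ND replicate 2.

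Among the linker histones, all 5 H1 genes had negative log2 fold changes, in a narrow range from -0.74 to -0.62 with a median of -0.72. Of them 1 was called lower, against 0.228% of all genes. H1f4 (ENSMUSG00000051627, chr13:23620629-23622558), a somatic H1 subtype, had 540 and 532 CPM in the HFD libraries, against 1024 and 744 CPM in the ND libraries. It fell by 0.72 ± 0.15 on the log2 scale (SE; edgeR adjusted p = 0.0396), and the diets did not overlap. H1f5 had 293 and 273 CPM with HFD, against 608 and 336 CPM with ND. Its log2 fold change was -0.74 ± 0.21 (edgeR adjusted p = 0.146), and ND replicate 2 lay closer to the HFD libraries than to ND replicate 1. H1f2 had 554 and 499 CPM with HFD and 969 and 648 CPM with ND, a log2 fold change of -0.62 ± 0.17 (edgeR adjusted p = 0.114). Without ND replicate 1 the class median was -0.30, the smallest of the 5 class medians in that fit.

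H2A forms a dimer with H2B at the surface of the nucleosome, where its acidic patch is bound by many chromatin proteins. Of 19 H2A genes 16 were tested and 4 were called lower, against 0.228% of all genes. The median log2 fold change was -0.76. H2ac20 (ENSMUSG00000068855, chr3:96220361-96220880), whose stem-loop and promoter are shown above, had 111 and 111 CPM in the HFD libraries, against 230 and 194 CPM in the ND libraries. It fell by 0.94 ± 0.14 on the log2 scale, the smallest adjusted p among the members (edgeR adjusted p = 0.0082), and the HFD libraries agreed far more closely than the gap to ND. Hist1h2ao (ENSMUSG00000094248, chr13:21810465-21810944) had 114 and 97.9 CPM with HFD and 275 and 188 CPM with ND. It fell by 1.13 ± 0.18 on the log2 scale (edgeR adjusted p = 0.0145), the largest fall among the called members.

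H2ac15 and H2ac4 were the other called H2A genes. H2ac15 had 152 and 151 CPM with HFD, against 292 and 221 CPM with ND, and fell by 0.76 ± 0.15 on the log2 scale (edgeR adjusted p = 0.0329). H2ac4 had 82.6 and 100.3 CPM with HFD, against 174 and 137 CPM with ND, and fell by 0.77 ± 0.16 (edgeR adjusted p = 0.0413). Neither overlapped between diets. Per length, H2ac15 and H2ac10 stood highest of the class, with means of 524 and 502 FPKM over the 4 libraries. H2ac10 was not called: it had 152 and 151 CPM with HFD and 302 and 189 CPM with ND, a log2 fold change of -0.70 ± 0.19 (edgeR adjusted p = 0.111).

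H2B pairs with H2A and carries the site of ubiquitylation that accompanies transcription. Of 17 H2B genes 16 were tested and 3 were called lower, against 0.228% of all genes. The median log2 fold change of -0.81 was the lowest of the 5 classes. In all 16 both HFD libraries lay below both ND libraries, against 21.9% of all genes. The same held for 5 of 5 tested H1, 13 of 16 H2A, 10 of 11 H3 and 10 of 12 H4 genes. Among the H2B genes, H2bc21 had 13 and 9 counts with HFD, against 26 and 31 with ND. It fell short of the filter's setting of 10 counts in HFD replicate 2, so its ND libraries carried it into the test. H2bc3 (ENSMUSG00000075031, chr13:23746734-23747241), the gene with the octamer shown above, had 79.0 and 78.8 CPM in the HFD libraries, against 149.9 and 136 CPM in the ND libraries. It fell by 0.86 ± 0.14 on the log2 scale (edgeR adjusted p = 0.0151), with both pairs of libraries close together.

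H2bc11 had 48.1 and 55.6 CPM with HFD, against 113 and 87.3 CPM with ND, and fell by 0.95 ± 0.17 on the log2 scale (edgeR adjusted p = 0.0248). H2bc4, whose gene model is spliced and spans chr13:23684199-23692908, had 81.4 and 71.9 CPM with HFD and 136 and 121 CPM with ND, and fell by 0.75 ± 0.14 (edgeR adjusted p = 0.0322). The libraries of the diets did not overlap for either gene. The 2 most abundant H2B genes per length, H2bc18 and H2bc15, with means of 403 and 352 FPKM, missed the threshold. H2bc18 had 109.8 and 112 CPM with HFD and 233 and 153 CPM with ND, a log2 fold change of -0.80 ± 0.18 (edgeR adjusted p = 0.0559). H2bc15 had 93.4 and 101 CPM with HFD and 201 and 136 CPM with ND, a log2 fold change of -0.79 ± 0.18 (edgeR adjusted p = 0.054).

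**Figure D2:**
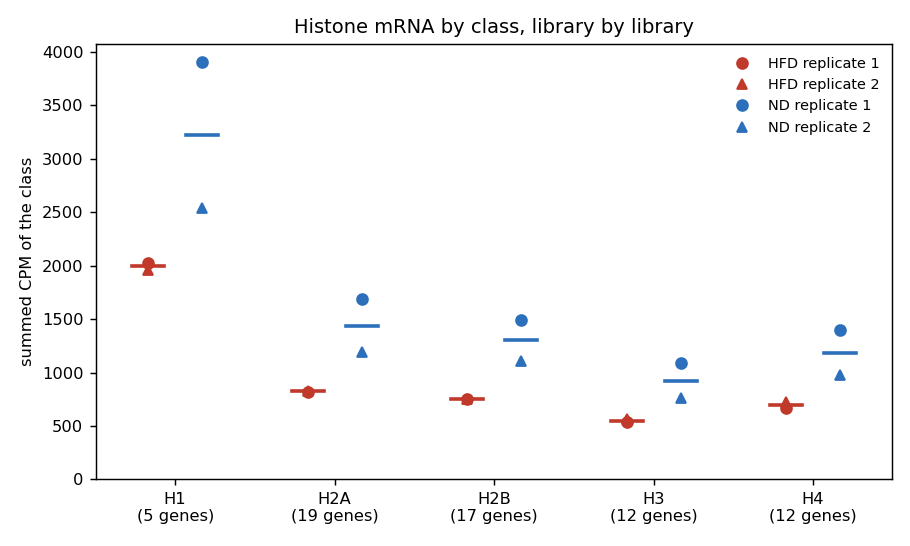
Summed CPM of each histone class in each library, with HFD libraries (red) left of ND libraries (blue) and a bar at the mean of each diet. In every class both HFD libraries lie together and below both ND libraries, and ND replicate 1 lies well above ND replicate 2.

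H3 carries, on its tail, many of the best-known methylation and acetylation marks of chromatin. Of 12 H3 genes 11 were tested and 3 were called lower, against 0.228% of all genes. The median log2 fold change was -0.74. H3c7 had 48.7 and 56.8 CPM in the HFD libraries, against 109 and 89.6 CPM in the ND libraries, and fell by 0.91 ± 0.16 on the log2 scale (edgeR adjusted p = 0.0247). H3c6, whose stem-loop is shown above, had 91.8 and 93.3 CPM with HFD, against 204 and 137 CPM with ND, and fell by 0.89 ± 0.18 (edgeR adjusted p = 0.0361). For both genes the lower ND library stood clear of the higher HFD library. H3c2 had 52.2 and 51.5 CPM with HFD and 97.3 and 79.7 CPM with ND, and fell by 0.77 ± 0.16 (edgeR adjusted p = 0.0413).

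The H3 genes with the highest means per length were H3c11 with 190 FPKM, H3c6 with 159 FPKM and H3c13 with 130 FPKM. H3c11 had 49.5 and 67.0 CPM with HFD and 108 and 85.6 CPM with ND, a log2 fold change of -0.74 ± 0.18 (edgeR adjusted p = 0.0867). H3c13 had 46.5 and 43.9 CPM with HFD, against 98.1 and 62.2 CPM with ND, a log2 fold change of -0.83 ± 0.21 (edgeR adjusted p = 0.0877). Neither overlapped between diets. The most negative log2 fold change of all members was that of H3c10, -1.22 ± 0.33 with an edgeR adjusted p of 0.109, from 11.98 and 21.8 CPM with HFD and 50.8 and 28.2 CPM with ND. H3c10 is named because of that rank, after its values were seen.

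H4 forms a tetramer with H3 at the centre of the nucleosome. All 12 H4 genes were tested and 3 were called lower, against 0.228% of all genes. The median log2 fold change was -0.75. H4c4 (ENSMUSG00000061482, chr13:23581598-23582735) was the most abundant H4 gene per length, with a mean of 347 FPKM. It had 279 and 302 CPM in the HFD libraries, against 578 and 404 CPM in the ND libraries, and fell by 0.76 ± 0.16 on the log2 scale (edgeR adjusted p = 0.0444). H4c12, whose promoter is shown above, had 44.0 and 53.2 CPM with HFD, against 108 and 81.6 CPM with ND, and fell by 0.96 ± 0.18 (edgeR adjusted p = 0.0277). The diets did not overlap for either gene.

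H4c6 had 40.6 and 42.3 CPM with HFD, against 86.6 and 63.8 CPM with ND, and fell by 0.86 ± 0.18 on the log2 scale (edgeR adjusted p = 0.0456). H4c8 had 71.8 and 71.4 CPM with HFD, against 119 and 93.3 CPM with ND, a log2 fold change of -0.57 ± 0.16 (edgeR adjusted p = 0.121). Both genes were ordered alike, with ND replicate 1 highest and the HFD libraries nearly equal. H4f16, an H4 gene outside the naming rule and looked at after its values were seen, had 36.0 and 47.4 CPM with HFD, against 82.0 and 62.1 CPM with ND. Its log2 fold change was -0.79 ± 0.20 (edgeR adjusted p = 0.084).

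Every class had a lower summed level with HFD. Summed CPM with HFD over that with ND gave ratios of 0.619 for H1, 0.572 for H2A, 0.579 for H2B, 0.596 for H3 and 0.583 for H4. H1 summed to 2024 and 1963 CPM in the HFD libraries, against 3906 and 2539.6 CPM in the ND libraries. H2A summed to 821 and 827 CPM with HFD and 1688 and 1191 CPM with ND, and H2B to 757 and 752 CPM with HFD and 1496 and 1110.1 CPM with ND. In each class the HFD sums lay below both ND sums. H3 summed to 537 and 565 CPM with HFD and 1089.5 and 759.8 CPM with ND, and H4 to 665 and 721 CPM with HFD and 1401 and 974 CPM with ND. Without ND replicate 1 the class medians of the log2 fold change were -0.30 for H1, -0.50 for H2A, -0.55 for H2B, -0.46 for H3 and -0.45 for H4. Differences between classes were not tested.

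**Figure D3:**
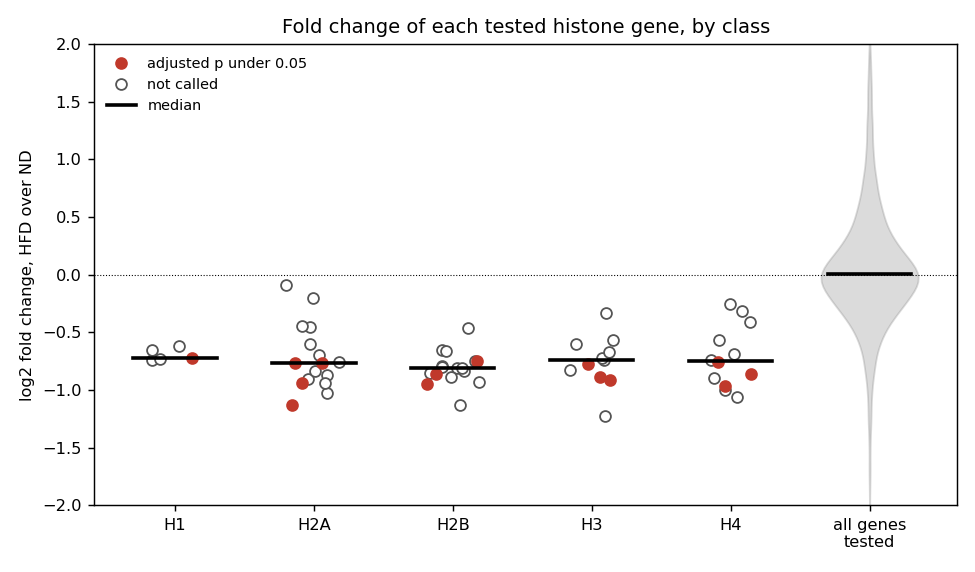
Log2 fold change (HFD over ND) of each tested histone gene by class, filled red where called, with a bar at each median and the distribution over all 14479 tested genes in grey (cut at -2 and 2). Class medians lie between -0.81 and -0.72, all points are below 0, and the median over all genes is 0.002.

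H2A and H2B genes often share a short divergent promoter, and 13 such pairs were found, with 175 to 305 bases between the gene models. In 12 pairs both genes were tested. The log2 fold changes of partners differed by a median of 0.31 and by at most 0.48, in the H2ac13 and H2bc13 pair, which had -0.46 and -0.93. In 5 pairs 1 partner was called and the other was not, and in 0 pairs were both called. Of all genes tested 0.228% were called lower. The pair of H2ac15 and H2bc15 had nearly equal values of -0.76 and -0.79, on either side of the threshold.

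By position, joining genes less than 100000 bases apart, the members formed 5 stretches on chromosome 13 and 1 on chromosome 3. The background for calls was 0.228% of all tested genes called lower. The largest stretch, chr13:23531050-23764406, held 28 members of all 5 classes, all tested, of which 9 were called lower, with a median log2 fold change of -0.75. The stretch at chr13:21715763-21837530 held 19 tested members, 3 called, with a median of -0.76. That at chr13:22035164-22043676 held 5 tested members, of which H2bc11 was called, with a median of -0.60. The stretch on chromosome 3, chr3:96219865-96270132, held 10 members, 8 tested and only H2ac20 called, with a median of -0.86. Negative values thus occurred on both chromosomes and at every tested position.

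**Figure D4:**
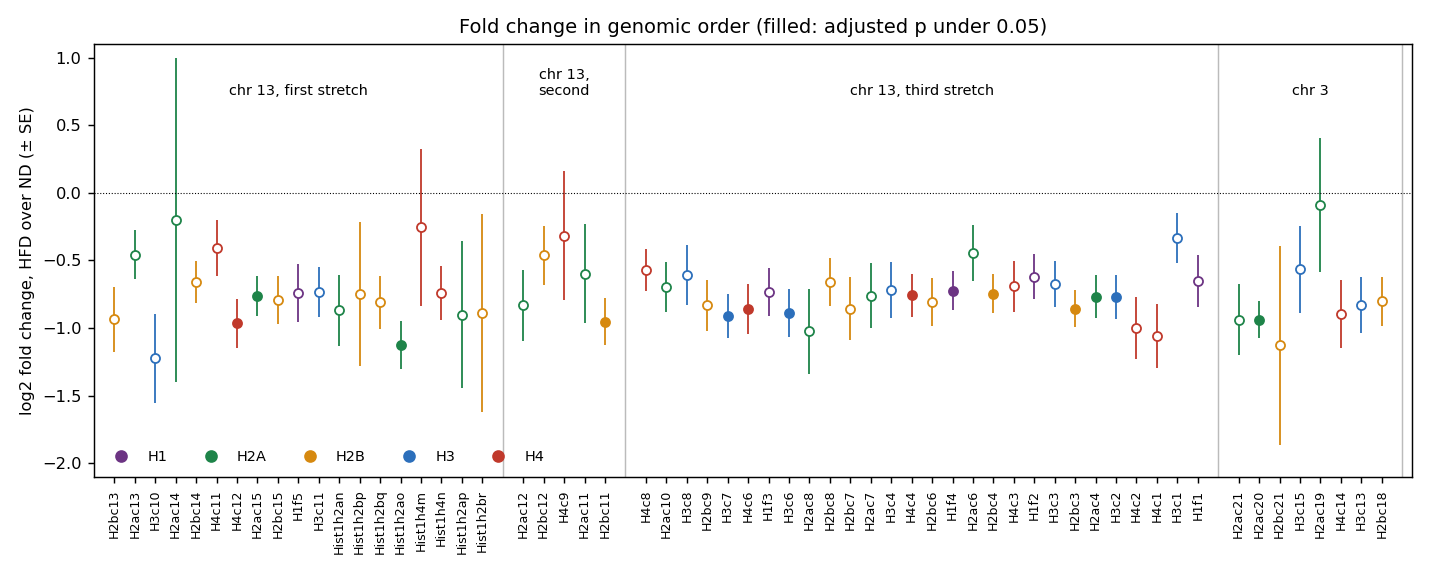
Log2 fold change (HFD over ND) with its SE for the 60 tested members in genomic order, coloured by class and filled where called, with grey lines between stretches. All points lie below 0 in the 3 stretches of chromosome 13 and in that of chromosome 3, and the widest errors belong to genes with few counts.

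The 5 members that were not tested had few or no counts. H2bc1 and H2ac1, known as testis forms, form a stretch of their own at chr13:23933773-23934851. H2bc1 had 0 and 1 counts in the HFD libraries, against 1 and 0 in the ND libraries, and H2ac1 had 0 in all 4. Hist1h2al, annotated as a pseudogene, had 0 and 0 counts with HFD and 2 and 0 with ND, H2ac18 had 2 and 1 with HFD and 10 and 6 with ND, and H3c14 had 0 in all 4. A count of 0 allows up to 3 counts, between 0.291 and 0.358 CPM per library. The 6 tested members whose diets overlapped were H2ac14, Hist1h4m, H4c9, H2ac11, H3c1 and H2ac19, with log2 fold changes from -0.60 to -0.09 and edgeR adjusted p from 0.476 to 0.975. H2ac14, annotated as a pseudogene, had the least precise value (SE 1.20). Of these 6, H2ac14, H2ac19 and Hist1h4m had positive values without HFD replicate 2, H2ac11 and H2ac19 without ND replicate 1, and H2ac14 and H4c9 without ND replicate 2.

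Many members are near-identical copies, and how reads that match several copies were counted is not given in the sources used here, so the value of a single copy is uncertain. Of all members, 54 shared at least 20% of their 50-base words with another annotated gene, member or not. Of these, 5 shared all, namely H2ac18, H2ac19, H3c13, H3c14 and H2bc18. With other members alone, these genes shared 89.2%, 100%, 79.7%, 34.7% and 0%, in that order. The gene outside the members that shared most was Gm20634 for H3c14 and Gm20628 for H2bc18. Of the called genes, Hist1h2ao shared 93.5%, H3c6 73.4% and H4c12 71.5%, while H4c4 shared 10.2%. The 11 members under 20% were all tested, with all log2 fold changes negative, a median of -0.74 and 1 call, H4c4. The other members had 49 tested, 13 called and a median of -0.77, where 0.228% of all genes were called lower. When members of 1 class and stretch that share sequence were summed into 1 feature before the fit, 8 of 19 features were called lower, against 0.187% of all features, with a median of -0.78. The gene models of H2bc6 and H1f4 overlap on the same strand, so reads from the overlap could belong to either gene.

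The annotated 3′ end also differed between members. Beside the calls given here, 0.228% of all tested genes were called lower. Of the members, 22 had models that end within 100 bases after the stem-loop, and of 21 tested 7 were called, with a median log2 fold change of -0.76. In 18 the model ran on for more than 100 bases past the loop, and of 17 tested 4 were called, with a median of -0.72. In 15 the model ended within 2 bases of the stop codon, and of 13 tested 2 were called, with a median of -0.80. The 8 remaining coding models were all tested, with 1 call and a median of -0.82, and the 2 pseudogenes had none. Whether the libraries were made after selection for poly(A) RNA is not given in the sources used here, and that step decides how much of an mRNA without a tail is captured.

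Genes that make, cut and degrade histone mRNA had a median log2 fold change of -0.25, with 15 of 19 negative, against 49.9% of all genes. The edgeR test called 0 of the 19 and DESeq2 0, against 0.228% and 0.794% of all genes called lower. At an unadjusted p under 0.05 in edgeR, 7 were lower, against 6.03% of all genes. Npat, the coactivator of histone transcription at S phase, had 43.6 and 37.7 CPM in the HFD libraries, against 56.4 and 62.1 CPM in the ND libraries, a log2 fold change of -0.54 ± 0.17 (edgeR adjusted p = 0.186). Slbp, the stem-loop binding protein, had 71.1 and 70.8 CPM with HFD, against 90.9 and 96.2 CPM with ND, a log2 fold change of -0.40 ± 0.14 (edgeR adjusted p = 0.241). Neither gene overlapped between diets, and for both ND replicate 2 was the higher ND library, the reverse of 56 of the 60 histone genes. Cpsf3, the endonuclease that cuts histone pre-mRNA, and Ncbp1, a subunit of the cap-binding complex, had log2 fold changes of -0.45 ± 0.15 and -0.42 ± 0.14 (edgeR adjusted p = 0.197 and 0.208). The list summed to 1240.2 and 1235 CPM with HFD and to 1490 and 1411 CPM with ND, a ratio of 0.853.

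Among histone chaperones, which carry new histones to DNA, 1 of 21 tested genes was called lower, against 0.228% of all genes, and 0 higher. The log2 fold change was negative for 18, against 49.9% of all genes, and the median was -0.31. The called gene was Rbbp7, a subunit shared by several histone-binding complexes, with 168 and 175 CPM in the HFD libraries, against 259.7 and 248 CPM in the ND libraries. It fell by 0.57 ± 0.12 on the log2 scale (edgeR adjusted p = 0.0479). Chaf1a and Chaf1b, subunits of the factor that assembles nucleosomes behind the replication fork, had log2 fold changes of -0.52 ± 0.15 and -0.85 ± 0.25 (edgeR adjusted p = 0.139 and 0.15). Ssrp1, a subunit of the FACT chaperone, had -0.42 ± 0.12 (edgeR adjusted p = 0.159). The call of Rbbp7 was lost when any 1 library was left out, with edgeR adjusted p from 0.165 to 0.464, and with upper quartile scaling (edgeR adjusted p = 0.0549). With equal sums of TPM its edgeR adjusted p was 0.18, and in the limma fits 0.208 and 0.195.

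Of 13 genes listed here as replacement histones 12 were tested (H3f5 was not analysed here). Whether each listed gene is made throughout the cell cycle was not tested. Of the 12 tested genes, 1 was called lower, against 0.228% of all genes, and 0 higher. The log2 fold change was negative for 11, against 49.9% of all genes, and the median was -0.35. The called gene was H2ax, the H2A variant phosphorylated at DNA breaks, with 88.2 and 105 CPM in the HFD libraries, against 206 and 147 CPM in the ND libraries. It fell by 0.87 ± 0.17 on the log2 scale (edgeR adjusted p = 0.035), and that call too was lost when any 1 library was left out (edgeR adjusted p from 0.0607 to 0.464). With equal sums of TPM the edgeR adjusted p of H2ax was 0.1, and in the limma fits 0.238 and 0.227. H3f3a and H3f3b, which encode H3.3, had log2 fold changes of -0.16 and -0.23, and H2az1, which encodes H2A.Z, had -0.37 (edgeR adjusted p = 0.653, 0.436 and 0.545). H2aj had the 1 positive value, 0.29 (edgeR adjusted p = 0.508). The sums were 1281 and 1309.6 CPM with HFD, against 1698 and 1461 CPM with ND, a ratio of 0.82.

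Log2 fold changes of other cell cycle genes were negative as well. The 30 S-phase genes included the replication helicase subunits Mcm3, Mcm5 and Mcm7. All 30 log2 fold changes were negative, against 49.9% of all genes, with a median of -0.45. The edgeR test called 0 of them, against 0.228% of all genes called lower. At an unadjusted p under 0.05 in edgeR, 22 were lower, against 6.03% of all genes. DESeq2 called 2, Mcm3 and Mcm5, against 0.794% of all genes called lower. Mcm5 had 146 and 153 CPM in the HFD libraries, against 247 and 209 CPM in the ND libraries, a log2 fold change of -0.61 ± 0.13 (edgeR adjusted p = 0.0508). For 25 genes of mitosis and G2/M all 25 log2 fold changes were negative, against 49.9% of all genes, with a median of -0.49. Of these, edgeR called 1 lower (0.228% of all genes) and DESeq2 called 3, Ccna2, Cdc20 and Top2a (0.794% of all genes). The gene called by both was Cdc20, which switches on the anaphase-promoting complex, with 63.7 and 56.5 CPM with HFD, against 116 and 95.4 CPM with ND. It fell by 0.81 ± 0.16 on the log2 scale (edgeR adjusted p = 0.0328), a call lost when any 1 library was left out (edgeR adjusted p from 0.1 to 0.464). With equal sums of TPM the edgeR adjusted p of Cdc20 was 0.092, and in the limma fits 0.208 and 0.195.

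The summed S-phase list had 2539.6 and 2583 CPM in the HFD libraries and 3883 and 3097 CPM in the ND libraries, a ratio of 0.734. The mitosis and G2/M list had 3795 and 4079.9 CPM with HFD and 6477 and 4236 CPM with ND, a ratio of 0.735. For both lists, as for the histone genes, ND replicate 1 was the highest library. Against ND replicate 2 alone the ratios were 0.827 for S phase and 0.929 for mitosis and G2/M, beside 0.732 for the histone genes. Without ND replicate 1 the median log2 fold changes were -0.26 and -0.22, with 27 of 30 and 20 of 25 negative, beside -0.47 for the histone genes. Whether the histone genes moved with the share of cells in cycle was not tested.

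**Figure D5:**
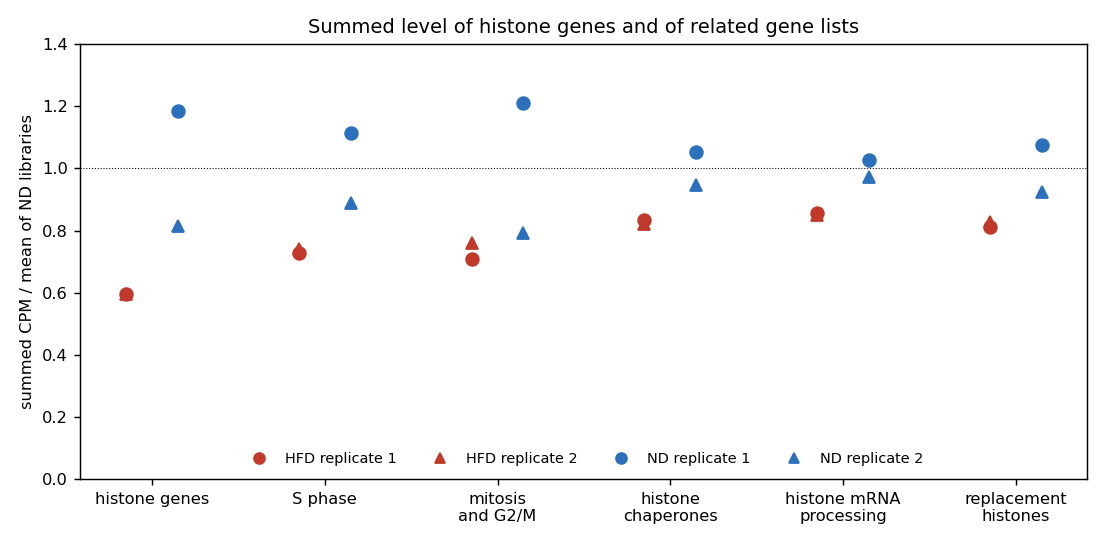
Summed CPM of the histone genes and of 5 related gene lists in each library, divided by the mean of the ND libraries, with HFD libraries in red and ND libraries in blue. The histone genes have the lowest HFD values, near 0.6, and ND replicate 1 is the highest library in every list.

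Of the markers of follicle stem cells and basal keratinocytes, all 10 were tested and 1 was called, against 1.12% of all genes called higher. It was Krt14, a keratin of basal cells, which was higher with HFD (log2 fold change 0.70, edgeR adjusted p = 0.0332). That call was lost without ND replicate 1. The 10 markers summed to 20162 and 18705 CPM in the HFD libraries, against 14308 and 16282 CPM in the ND libraries. Krt5, Krt14 and Krt15 made up most of each sum. Of the 10 log2 fold changes 5 were negative, against 49.9% of all genes, and the median was 0.04. The negative ones were Lhx2 (-0.49), Nfatc1 (-0.27), Cd34 (-0.20), Sox9 (-0.18) and Lgr5 (-0.13). In each of these 5 both HFD libraries lay below both ND libraries, against 21.9% of all genes. Immune markers, 7 of 10 tested and 0 called, summed to 53.0 and 58.2 CPM with HFD, against 19.0 and 44.8 CPM with ND. Dermal markers, 6 of 8 tested and 0 called, summed to 80.5 and 64.5 CPM with HFD, against 44.8 and 56.4 CPM with ND, with Sox2 and Corin at 0 in all libraries. Endothelial and mural markers, 6 of 6 tested and 0 called, summed to 31.0 and 37.3 CPM with HFD, against 17.7 and 21.9 CPM with ND. Melanocyte markers, 5 of 7 tested and 0 called, summed to 39.99 and 29.7 CPM with HFD, against 51.3 and 28.3 CPM with ND. Sebocyte markers, 4 of 6 tested and 0 called, summed to 300.3 and 319 CPM with HFD, against 323 and 315 CPM with ND. Fasn and Plin2 made up most of each sum, while Scd3, Mc5r, Awat1 and Elovl3 had at most 2.42 CPM in any library. Of 5 adipocyte markers Adipoq, Plin1, Cfd and Lep were at 0 in all libraries. The other, Fabp4, had 3 and 15 counts with HFD, against 2 and 4 with ND, and did not pass the filter. The part of these markers in the histone result was not tested.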

How the data were processed

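RNA was sequenced from hair follicle stem cells, with 2 libraries for each diet, grouped by the diet in the labels. Tools named in the submitters' processing notes are HISAT2 2.0.1, cutadapt 1.9.1 and bcl2fastq 2.17.1.14. No source used here names the counting program, the annotation or the build. Raw counts and FPKM per gene were deposited by the authors, and each of the 221604 FPKM was the count over exonic size and library total, to within 0.005 FPKM. All 65 members had the same position in GENCODE models of GRCm38, which gave the stem-loops, while promoters came from RefSeq (GRCm38.p6).

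Counts were tested in R 4.3.3 with edgeR 4.0.16 (quasi-likelihood test, TMM, default expression filter by diet, Benjamini-Hochberg adjustment over all 14479 genes tested). A gene could pass the filter through the libraries of 1 diet alone, as the member H2bc21 did through ND. DESeq2 1.42.0 and limma 3.58.1 were alternatives. The fits were checked on simulated counts. A standard error is the log2 fold change divided by the square root of F. With 2 libraries per diet, the common biological coefficient of variation of 20.3% limits precision, and the floor of 3 counts covers counting error only. The members and lists were chosen with earlier results of these data known. The named genes were every called member, the 3 tested members of each class and the member of each stretch with the highest mean FPKM, every called gene of the other lists and up to 4 per list with the smallest p. H3c10, H4f16, H3f3a, H3f3b, H2az1 and H2aj were added after their values were seen, as were the members named to account for a count. Slbp belongs to both the histone mRNA list and the S-phase list.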

Additional observations from a re-analysis of the deposited data

How the results depend on the processing

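The 14 called members stayed called with DESeq2 size factors, upper quartile scaling, library totals, an FPKM filter, leaving out ribosomal, mitochondrial or small RNAs and removal of a trend on exonic length, with 14 to 21 members called. DESeq2 called 33, the fit without a count filter 44 of 63 and the replicate block 38 (0.767% of all genes), each including the 14. Scaling to equal sums of TPM called 2, and limma on log2(FPKM + 1) and log2(FPKM + 0.1) called 0 and 0, where 48 of 58 had an unadjusted p under 0.05 (8.88% and 8.9% of all genes). Summing members that share sequence gave 8 of 19 features. Leaving out 1 library gave 0 to 2 calls, with the lone library assumed to vary like the other diet. No member was called higher in any of these fits, and the median log2 fold change stayed between -0.99 and -0.47. The 22 members chosen by the naming rule were negative in every fit. Of all calls, 83.1% were higher with HFD, against 96.7% with equal TPM sums, 67.0% with library totals and 69.2% without the length trend. Same-numbered libraries did not deviate together (correlation -0.005), so the replicate block pairs only numbers.

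With 2 libraries per diet, members with few counts had wide errors, and the values of single copies are uncertain where copies share sequence. Over all alternatives those 22 gave 249 values on the same side of the threshold, 96 that lost a call, 29 that gained one and 0 of changed sign. The 38 other tested members gave 541 on the same side, 92 that gained a call and 7 of changed sign, all with 1 library left out. Leaving out each library in turn, the log2 fold change of H2ac14 ranged from -1.73 to 1.81, of Hist1h4m from -0.59 to 0.012, of H4c9 from -0.65 to 0.12, of H2ac11 from -1.16 to 0.35 and of H2ac19 from -0.37 to 0.27. The named genes of the other lists gave 298 values on the same side, 22 that lost a call, with Rbbp7 under upper quartile scaling among them, 20 that gained one and 0 of changed sign.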
